A study of Medicago ruthenica with 3 samples.

Results

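The NBS-LRR immune receptor transcripts of Medicago ruthenica leaves were examined in a degradome table. They were taken as every transcript annotated as a disease resistance protein, as the TMV resistance protein N, or with one of the terms NBS-LRR, NB-ARC or TIR domain, together with those annotated with both a P-loop and a leucine-rich repeat domain. The rule found 110 of 6912 transcripts, which carried 142 of 11390 entries and were listed with 48 of 348 small RNAs. Leaves of the drought-tolerant forage legume Medicago ruthenica came from plants that were 4 weeks old when treatment began. RW plants went without water for 15 days and were sampled 2 days after rewatering, DS plants went without water for 15 days until soil moisture was 20%, and CK plants were watered throughout, with soil moisture above 80%. Leaves of DS and CK were taken on day 15, so RW was sampled 2 days later than both. Rewatering cannot be told apart from this difference in day and plant age. Degradome sequencing reads polyadenylated RNA from its uncapped 5′ ends. There was 1 library for each condition, and whether several plants were pooled in it is not given in the sources used here. Every difference below is therefore one between 2 libraries, with no replicate check.

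NBS-LRR proteins are receptors inside the cell that sense the effectors of pathogens, with a nucleotide-binding domain (NB-ARC, which contains the P-loop) and leucine-rich repeats. One class carries a TIR domain at its N-terminus, and most of the others carry a coiled coil there (here called non-TIR). In legumes, miRNAs of a few families (miR1507, miR482 with miR2118, miR2109 with miR5213, and miR1510) are known to cut transcripts of these receptors and to start phased small interfering RNAs from them. An uncapped 5′ end is what such a cut leaves behind, but whether the reads of any entry came from a cut by the listed small RNA was not tested. In leaf RNA of mixed cells, fewer cells that express a receptor and less of its RNA per cell cannot be told apart.

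The table held 29617 reads in RW, 32719 in DS and 24790 in CK, and 1 read was worth 33.8 RPM (reads per 1000000 of the table) in RW, 30.6 RPM in DS and 40.3 RPM in CK. Of the 13 leaf marker transcripts (Rubisco small subunit, Rubisco activase and chlorophyll a-b binding proteins), 13 had reads in RW, 10 in DS and 10 in CK, and 9 had reads in all libraries. They summed to 966 reads in RW, 1827 in DS and 918 in CK, but 1 Rubisco activase transcript (RCA2, TRINITY_DN25057_c1_g1) held 726, 1706 and 649 of these, and the other 12 had 240 reads in RW, 121 in DS and 269 in CK. Intervals are exact 95% intervals and, like floors, cover counting error only, since each condition had 1 library. The reads carry no molecular identifiers, so copies of 1 molecule may count as separate reads, and the intervals may be too narrow even for counting error.

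The receptors were a small and shallow part of the table, and their share was lowest after rewatering. They held 292 reads in RW, or 0.986% of the table reads of that library (0.877 to 1.11), 386 reads in DS, or 1.18% (1.07 to 1.30), and 345 reads in CK, or 1.39% (1.25 to 1.55). The intervals of RW and CK did not overlap, whereas that of DS overlapped both. Taken as ratios of these shares, the intervals of DS/CK (0.731 to 0.983), RW/DS (0.715 to 0.975) and RW/CK (0.604 to 0.830) all lay below 1. By the mapped reads of each library, the ratios were 1.23, 0.886 and 1.09, so the order held for the table totals only. Most were seen in part of the libraries, since 62 of the 110 receptors were listed in a single library and 26 in all 3, against 3380 and 1851 of the 6912 transcripts of the whole table. A receptor had a median of 2.5 reads over the 3 libraries, against 3 for all transcripts, and 35 receptors had a single read. The 20 receptors with at least 10 reads held 781 of the 1023 receptor reads (76.3%), and the 6 deepest alone held 52.3%.

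Of the 17 small RNAs of the 4 families found in the table, 12 were listed with a receptor, and none named miR2109 had any entry. These families reached 63 receptors, 6 of them through more than 1 family, while 47 receptors were listed with other small RNAs only. No filter on how well a small RNA matched its transcript was applied to these counts. Depth divided the 2 kinds of pair. A family and transcript pair sums all entries of 1 miRNA family on 1 transcript, and 17 of the 69 pairs of these families had at least 10 reads, against 0 of the 66 pairs with other small RNAs, whose deepest pair had 7 reads. Among pairs on all other transcripts, 1332 of 10215 (13.0%) were that deep.

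The small RNAs differed widely in how many of their listed transcripts were receptors. For mtr-miR1507-3p, 14 of 26 transcripts (53.8%, 33.4 to 73.4) and 86.5% of its reads were on receptors. For mtr-miR5213-5p the share was 19 of 50 transcripts (38.0%, 24.7 to 52.8), with 56.2% of its reads. The miR482 and miR2118 forms were not alike, because mtr-miR482-3p_L-1R+2 had 8 receptors among 20 transcripts (40.0%, 19.1 to 63.9) whereas nta-miR482a_R-3_1ss19CT had 2 among 396 (0.505%, 0.0612 to 1.81). The small RNA with the most receptors, ppe-MIR169i-p5_2ss17GT19TG, had 20, but among 2120 transcripts (0.943%, 0.577 to 1.45), against 110 of 6912 (1.59%) in the table as a whole, and it held 40 receptor reads. These shares count transcripts of 1 assembly, which can split 1 gene into several transcripts.

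**Figure D1:**
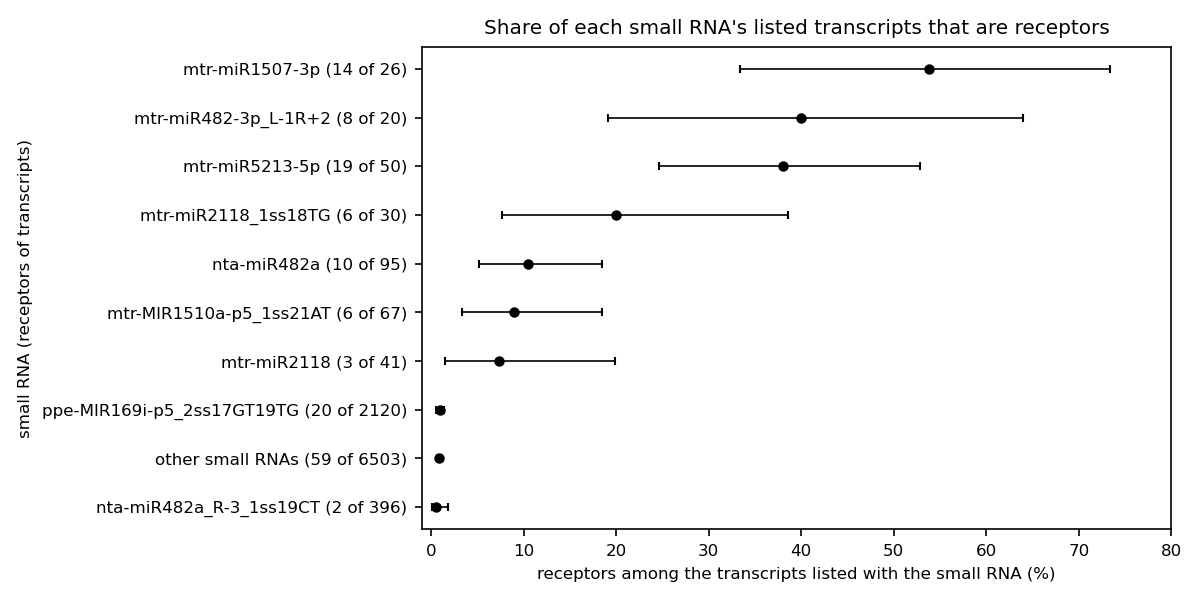
Share of the listed transcripts that are receptors, in percent, for 9 small RNAs and for all small RNAs outside the 4 families together (points) with exact 95% intervals (bars); the counts stand beside each name. mtr-miR1507-3p is highest at 53.8%, and nta-miR482a_R-3_1ss19CT, at 0.505%, is the lowest of those shown. Small RNAs listed with no receptor are left out, as are others that were listed with receptors.

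The families also differed in the class of receptor on which they were listed. By annotation and symbol, which can name different relatives of 1 transcript, 51 receptors were TIR, 45 were non-TIR, and 14 could not be assigned, RFL1 among them. All 14 receptors of miR1507 were non-TIR (198 reads), whereas 18 of the 19 receptors of miR5213 were TIR, with 343 of its 354 reads, and the remaining one had no class. miR482/miR2118 was listed on both, with 79 reads on 14 TIR receptors, 100 reads on 10 non-TIR receptors and 145 reads on 4 without a class. miR1510 had 17 reads on 4 TIR receptors, 3 non-TIR receptors and 1 without a class, and 15 of those reads were listed with arms named as 5p. The other small RNAs were listed on 25 TIR and 25 non-TIR receptors, with 58 and 59 reads.

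**Figure D2:**
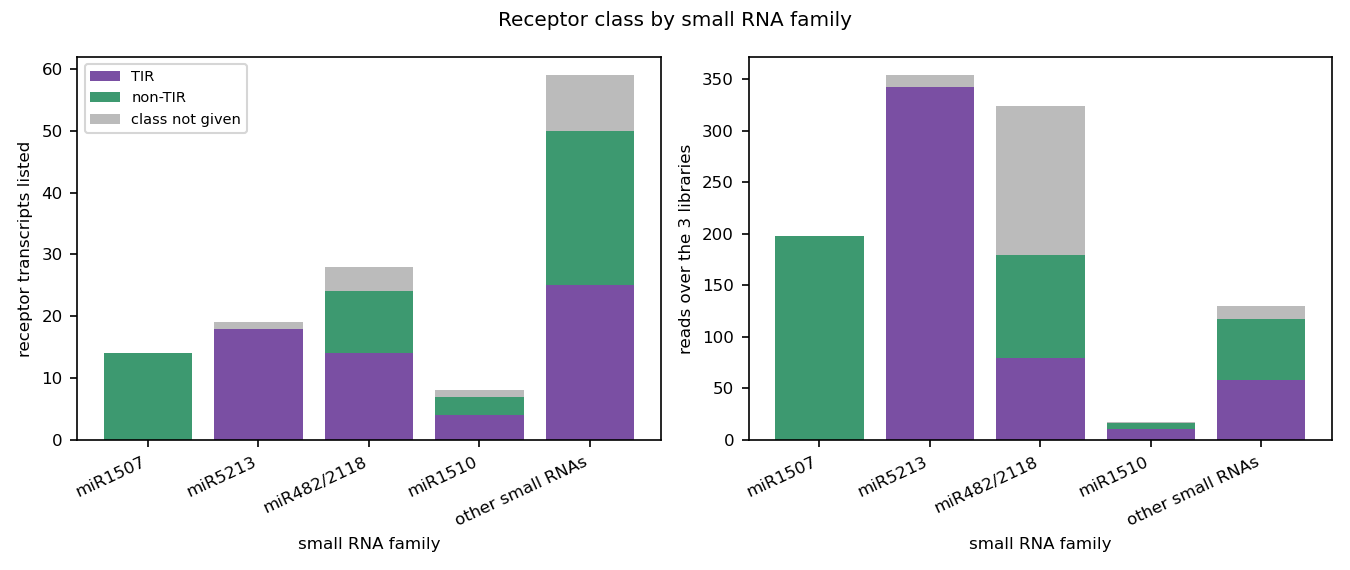
Number of receptor transcripts (left) and reads over the 3 libraries (right) for each small RNA family, stacked by receptor class. The bar of miR1507 is wholly non-TIR (198 reads), that of miR5213 almost wholly TIR (343 of 354 reads), and that of miR482/miR2118 holds all 3 classes.

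Among the TIR receptors, those of miR5213 were the deepest. RPP5 (TRINITY_DN15738_c0_g4), annotated as TMV resistance protein N and named after an Arabidopsis receptor for downy mildew, had 23 reads in RW, 49 in DS and 39 in CK, or 777, 1498 and 1573 RPM. DS and CK were close to each other and RW stood below both. TRINITY_DN26397_c1_g4, an isoform of protein N, the tobacco receptor for tobacco mosaic virus, was nearly level with 31 reads in RW, 31 in DS and 24 in CK. TRINITY_DN18267_c0_g3, also annotated as protein N, had 18 reads in RW, 16 in DS and 20 in CK. TRINITY_DN14118_c0_g7, a further protein N, had 7, 12 and 12 reads in RW, DS and CK over miR5213 and miR1510, of which 5, 11 and 10 were with miR5213. None of these 3 passed the test in any comparison.

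Other TIR receptors of miR5213 were listed in some libraries only. At4g11170 (TRINITY_DN16446_c0_g6) had 0 reads in RW, 10 in DS and 2 in CK. TRINITY_DN25764_c1_g4 had the reverse gap, with 7 reads in RW, 0 in DS and 5 in CK over 3 small RNAs, of which 5, 0 and 2 were with miR5213, and TRINITY_DN24170_c0_g3 had 0 reads in RW, 4 in DS and 6 in CK. As a floor, a count of 0 was taken to allow up to 3 reads, which is 101 RPM in RW and 91.7 RPM in DS, while the two-sided 95% intervals of these zeros reach 125 RPM in RW and 113 RPM in DS. The TIR receptors of miR482/miR2118 were shallower. TRINITY_DN15976_c0_g2, annotated as protein N, had 10 reads in RW, 5 in DS and 5 in CK, and a second transcript with the symbol At4g11170 (TRINITY_DN16096_c0_g1) had 3, 2 and 6. RCT1 (TRINITY_DN25899_c2_g1), known from Medicago truncatula as a receptor for anthracnose, had 3 reads in RW, 5 in DS and 5 in CK, all with mtr-miR2118.

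Among the non-TIR receptors, the RGA group of miR1507, named after resistance gene analogues of wild potato, did not move as one. RGA1 (TRINITY_DN17179_c0_g2) had 14 reads in RW, 18 in DS and 34 in CK, or 473, 550 and 1372 RPM, so that CK stood alone at the top. RGA3 (TRINITY_DN14306_c0_g2) had 9 reads with miR1507 in RW, 3 in DS and 13 in CK, with its lowest value in DS. A second transcript with the symbol RGA3 (TRINITY_DN14861_c1_g2) had 3 reads in RW, 15 in DS and 9 in CK, with its highest value in DS. RGA4 (TRINITY_DN26455_c2_g1) had 1, 3 and 7 reads in RW, DS and CK. RPPL1 (TRINITY_DN25690_c0_g5) had 15 reads in RW, 9 in DS and 14 in CK over miR1507 and miR5291, with DS lowest.

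RPPL1 was also the symbol of the deepest non-TIR receptor of miR482/miR2118 (TRINITY_DN16129_c1_g3), with 19 reads in RW, 25 in DS and 35 in CK. The small RNA named for it changed between libraries. In RW all 19 reads stood under mtr-miR2118_1ss18TG, whereas in DS and CK all 25 and all 35 stood under mtr-miR482-3p_L-1R+2. A count by single small RNA would thus show 1 entry absent from RW and another absent from DS and CK, and the family sum is given here for that reason. At4g33300 (TRINITY_DN15419_c0_g2), known in Arabidopsis as a helper receptor of the ADR1 group, had 5 reads in RW, 6 in DS and 1 in CK, spread over 6 small RNAs. RPM1 (TRINITY_DN17990_c0_g3), a receptor for Pseudomonas effectors in Arabidopsis, had 3, 3 and 4 reads in RW, DS and CK and was the only one of the 20 listed with none of the 4 families.

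The deepest receptor of all, RFL1 (TRINITY_DN14567_c0_g1), had 35 reads in RW, 71 in DS and 33 in CK, all with nta-miR482a, or 1182, 2170 and 1331 RPM. DS stood above both other libraries, which were close to each other. The name lists used for the classes did not hold its symbol, so it was given no class. The only other receptor without a class that had at least 10 reads, TRINITY_DN22678_c0_g2, had 2 reads in RW, 5 in DS and 6 in CK over miR5213 and miR482/miR2118. Over the 20 receptors with at least 10 reads, the highest RPM was in RW for 3, in DS for 4 and in CK for 13, and the lowest was in RW for 11, in DS for 8 and in CK for 1. This tally was not made for all transcripts. With 1 read added to each count, DS/CK, RW/DS and RW/CK were below 1 for 16, 12 and 16 of the 20. Of the 1351 transcripts of that depth, 640, 650 and 611 were below 1. Scaling by the mapped reads of each library would raise every log2 ratio by 0.54 for DS/CK and 0.62 for RW/CK.

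**Figure D3:**
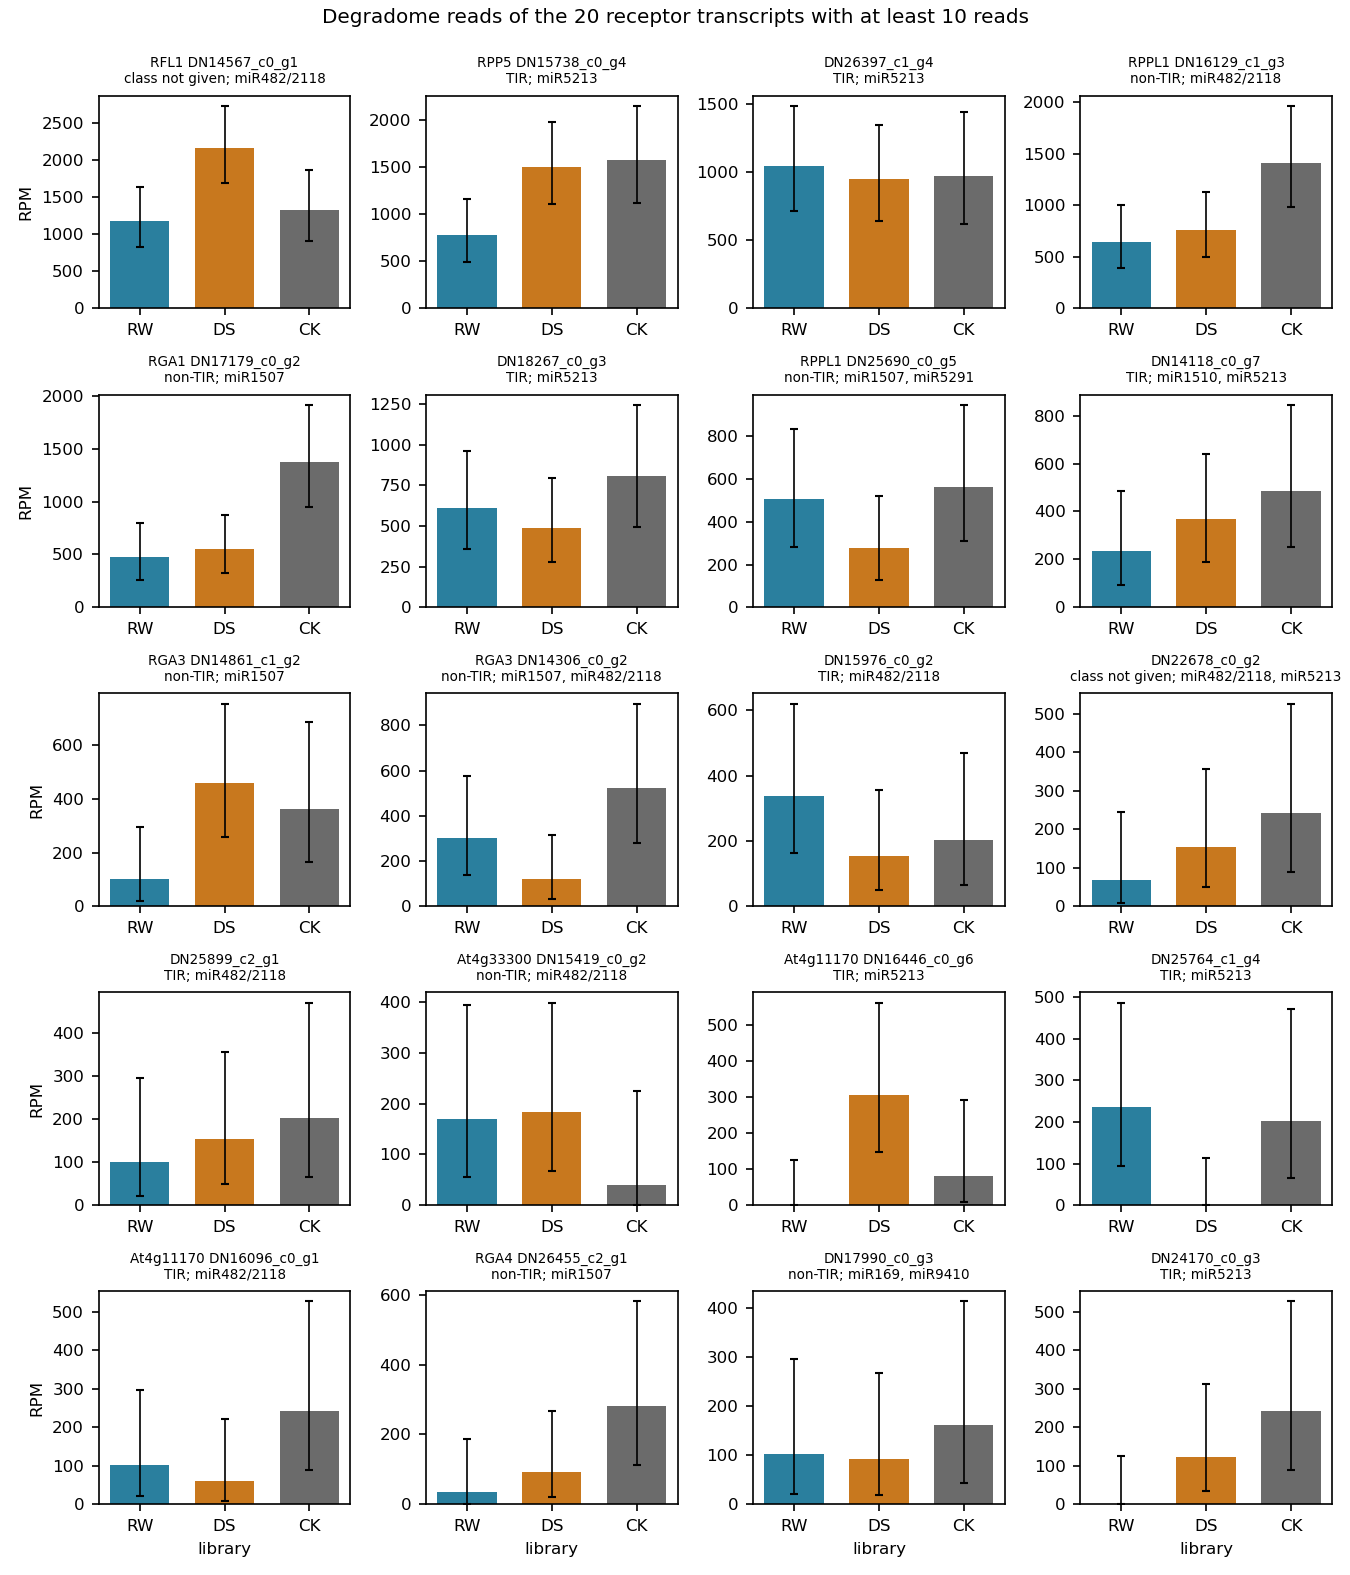
Degradome reads of the 20 receptor transcripts with at least 10 reads, in RPM for the RW, DS and CK libraries (1 library each); bars are exact 95% Poisson intervals for counting error, and panel scales differ. RFL1 peaks in DS at 2170 RPM, RGA1 in CK at 1372 RPM, and At4g11170 (TRINITY_DN16446_c0_g6) has no read in RW.

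The comparison of DS with CK asked how reads on receptors differed under drought. Of 135 receptor pairs, 15 had at least 10 reads over both libraries and were tested (exact binomial test given the sum of both counts and the table totals, Benjamini-Hochberg adjusted over all 892 pairs tested). Of these, 2 were lower and 0 higher in DS, where 9.30% of all tested pairs were lower, 12.3% higher and 21.6% called in either direction. Both were non-TIR receptors of miR1507. RGA1 was lower in DS at 0.401 times its CK level (0.213 to 0.730, adjusted p = 0.0127, exact test), and RGA3 (TRINITY_DN14306_c0_g2) at 0.175 times (0.0320 to 0.636, adjusted p = 0.0215, exact test). RFL1 stood at 1.63 times its CK level (1.06 to 2.54) but did not pass (adjusted p = 0.0863, exact test). With the mapped reads of each library, as the study gives them, or with no scaling in place of the table totals, both lower calls were lost and RFL1 was called higher. RGA1, RGA3 and RFL1 kept their directions, whereas some of the tested pairs with ratios closer to 1, such as RPP5, did not. RGA1 then stood at 0.582 with mapped reads (adjusted p = 0.165, exact test) and 0.529 without scaling, and RGA3 at 0.254 (adjusted p = 0.0712, exact test) and 0.231.

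In RW against DS, 12 receptor pairs were tested, of which 4 were lower and 0 higher in RW, with a background over 1020 pairs of 9.71% lower, 9.31% higher and 19.0% in either direction. RFL1 was lower in RW at 0.545 times its DS level (0.353 to 0.827, adjusted p = 0.0211, exact test) and RPP5 at 0.519 times (0.302 to 0.868, adjusted p = 0.0483, exact test). RGA3 (TRINITY_DN14861_c1_g2) was at 0.221 times (0.0410 to 0.781, adjusted p = 0.0471, exact test). At4g11170 (TRINITY_DN16446_c0_g6), with 0 reads in RW and 10 in DS, was at least 3.02-fold lower against the floor of 3 reads (two-sided interval of the ratio 0 to 0.493, adjusted p = 0.0150, exact test). The 4 receptors belonged to 3 families, and RPP5 and At4g11170 were TIR while RGA3 was non-TIR. RFL1 and At4g11170 were also called with mapped reads as scaling. RPP5, at 0.550 (adjusted p = 0.0761, exact test), and RGA3, at 0.234 (adjusted p = 0.0708, exact test), then missed the threshold with nearly the same ratios.

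In RW against CK, 11 receptor pairs were tested, of which 3 were lower and 0 higher in RW, with a background over 855 pairs of 7.49% lower, 7.37% higher and 14.9% in either direction. RGA1 was at 0.345 times its CK level (0.171 to 0.659, adjusted p = 0.00969, exact test), so that RGA1 was lower than CK in both DS and RW, comparisons that share the CK library. RPPL1 (TRINITY_DN16129_c1_g3) was at 0.454 times (0.246 to 0.816, adjusted p = 0.0425, exact test) and RPP5 at 0.494 times (0.281 to 0.847, adjusted p = 0.0489, exact test). RFL1 stood at 0.888 times its CK level (0.536 to 1.47). With mapped reads as scaling no receptor was called in this comparison, and RGA1 stood at 0.531, RPPL1 at 0.6996 and RPP5 at 0.760. When a common spread among pairs was allowed for in the test (beta-binomial), 0 pairs of the whole table were called in any of the 3 comparisons, and that spread also contains any true differences between pairs.

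Summed by family, the reads of miR1507 on receptors were lower in DS and in RW than in CK, relative to the table. miR1507 had 60 reads in RW, 55 in DS and 83 in CK, which gave 0.502 for DS/CK (0.350 to 0.714), 1.21 for RW/DS (0.822 to 1.77) and 0.605 for RW/CK (0.427 to 0.854). Without RGA1, its deepest receptor, the interval of RW/CK included 1 (0.786, 0.514 to 1.20). miR5213 had 94 reads in RW, 135 in DS and 125 in CK, and its ratios were 0.818 for DS/CK (0.637 to 1.05), 0.769 for RW/DS (0.585 to 1.01) and 0.629 for RW/CK (0.476 to 0.829). miR482/miR2118 had 96 reads in RW, 132 in DS and 96 in CK, and all 3 of its intervals included 1, at 1.04 for DS/CK (0.795 to 1.37), 0.803 for RW/DS (0.611 to 1.05) and 0.837 for RW/CK (0.624 to 1.12). RFL1 held 71 of its 132 reads in DS, and without RFL1 the DS/CK ratio of the family was 0.734 (0.507 to 1.06). By mapped reads, the interval of miR1507 for DS/CK included 1 (0.729, 0.509 to 1.04), as did that of miR5213 for RW/CK (0.969, 0.734 to 1.28), whereas that of miR482/miR2118 for DS/CK did not (1.51, 1.15 to 1.99). miR1510, with 3, 6 and 8 reads in RW, DS and CK, was too shallow for its intervals to show more than very large differences (0.0894 to 2.59 for RW/DS).

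The difference between families can be read without any scaling, since the library totals cancel. In DS/CK the ratio of miR1507 was 0.614 times that of miR5213 (0.394 to 0.952), and the ratio of miR482/miR2118 was 2.07 times that of miR1507 (1.32 to 3.27). Both were sensitive to single receptors, left out in turn as an alternative chosen after seeing the data. The value for miR1507 over miR5213 was 0.6999 without RGA1 (0.414 to 1.18) and 0.664 without RPP5 (0.410 to 1.07). That for miR482/miR2118 over miR1507 was 1.46 without RFL1 (0.869 to 2.46) and 1.82 without RGA1 (1.07 to 3.11), so that only RGA1 could be left out with an interval still above 1. Without the deepest receptor of both families at once the values were 0.756 (0.433 to 1.31) and 1.28 (0.711 to 2.32). For miR482/miR2118 over miR5213 the value was 1.27 (0.876 to 1.85) in DS/CK. In RW/DS and RW/CK the intervals of all 3 family differences included 1, the farthest value being 1.56 for miR1507 over miR5213 in RW/DS (0.973 to 2.52), which was 1.78 without RGA1 (1.04 to 3.06).

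TIR receptors had 143 reads in RW, 187 in DS and 160 in CK, and non-TIR receptors 105, 116 and 142. The TIR sums gave 0.886 for DS/CK (0.713 to 1.10), 0.845 for RW/DS (0.675 to 1.06) and 0.748 for RW/CK (0.593 to 0.943). The non-TIR sums gave 0.619 for DS/CK (0.480 to 0.797), 1.0 for RW/DS (0.761 to 1.31) and 0.619 for RW/CK (0.476 to 0.802). In DS/CK the TIR ratio was 1.43 times the non-TIR ratio (1.02 to 2.00), but this depended on where RFL1 was placed. With RFL1 counted as non-TIR, a choice made after its values were seen, the non-TIR ratio for DS/CK was 0.810 (0.655 to 1.001) and the difference 1.09 (0.805 to 1.49). It was 1.40 without RPP5 (0.973 to 2.00), 1.37 without RPPL1 (TRINITY_DN16129_c1_g3; 0.954 to 1.98) and 1.34 without both (0.910 to 1.98), each the deepest receptor of its class. Within miR482/miR2118, which was listed on both classes, the TIR ratio over the non-TIR ratio was 1.05 in DS/CK (0.479 to 2.29), an interval that also includes 1.43. The class difference in RW/DS was 0.845 (0.591 to 1.21) and in RW/CK 1.21 (0.850 to 1.72).

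**Figure D4:**
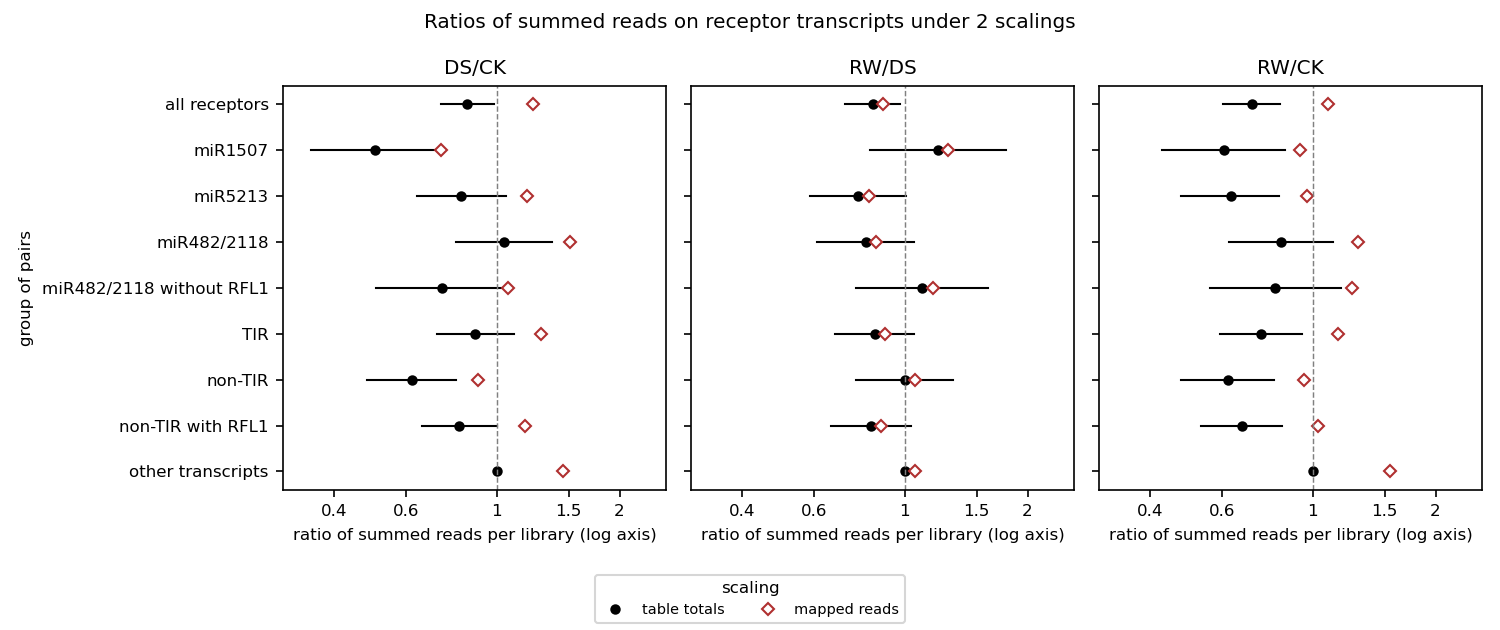
Ratios of summed reads for DS/CK, RW/DS and RW/CK (log axis), by group of receptor pairs. Filled points with bars are ratios by the table totals with exact 95% intervals, and open diamonds are the same ratios by mapped reads, which shift every group of a panel by the same factor; for all receptors in DS/CK they are 0.848 and 1.23.

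All receptors together stood at 0.848 for DS/CK (0.731 to 0.983), 0.836 for RW/DS (0.715 to 0.975) and 0.708 for RW/CK (0.604 to 0.830) by the table totals, while by mapped reads they stood at 1.23, 0.886 and 1.09. For DS/CK and RW/CK the direction thus changed with the scaling, and only the share of the table is the same under both. Without RFL1 the RW/DS value was 0.901 (0.761 to 1.07). As a description, the median log2 ratio of the 20 deeper receptors, with 1 read added to each count, was -0.66 for DS/CK, -0.22 for RW/DS and -0.90 for RW/CK, beside 0.08, 0.10 and 0.13 for the 1351 transcripts of that depth in the table.

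Genes that work with these receptors, or make the small RNAs, were read per transcript. Of 14 transcripts of receptor partners, 5 were tested in DS against CK, and 1 was higher and 0 lower, where 11.0% of 928 transcripts were higher, 9.16% lower and 20.2% called in either direction. That was HSP83A, a chaperone of the HSP90 kind, with 9 reads in RW, 20 in DS and 0 in CK (adjusted p = 0.000220 for DS against CK, exact test), of which 8 reads in RW and 11 in DS were listed with mtr-miR396a-5p. The paper lists the RNA of this transcript as upregulated, and mtr-miR396a-5p as downregulated, in both DS and RW against CK. Whether the HSP83A reads followed its RNA level was not tested. SGT1, a co-chaperone that works with HSP90 in stabilising receptors, had 14 reads in RW, 9 in DS and 7 in CK and did not pass. The list also matched HSP90 proteins of the chloroplast and the endoplasmic reticulum and an HSP70-HSP90 organizing protein, none of which passed. Of 11 transcripts of the small interfering RNA machinery, 2 were tested in DS against CK, and AGO1, which carries miRNAs and is itself cut through miR168, was lower in DS. AGO1 had 6 reads in RW, 1 in DS and 13 in CK (0.0583 for DS/CK, 0.00137 to 0.388, adjusted p = 0.00155, exact test), of which 4 in RW, 0 in DS and 4 in CK were listed with mtr-miR168b. In neither list was a transcript called in RW against DS, where 9.95% of 1045 transcripts were higher, 8.42% lower and 18.4% called in either direction, or in RW against CK, where 7.05% of 893 were higher, 6.27% lower and 13.3% called.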

How the data were processed

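The authors sequenced 1 single-end degradome library per condition and ran ACGT101-DEG, built on CleaveLand4, to find cleavage sites in their Trinity assembly. They also formed a much smaller set of pairs with low AllenScores, a penalty for mismatched bases. All entries were used here, without that filter. The deposited normalized counts are RPM values that sum to 1000000 over the table in each library. Every value was a whole multiple of 1 step (tolerance 0.025 of a read), so whole reads were recovered. Groups were taken from the treatment given for each sample, and value columns were matched to samples by the sample titles. Entries were summed by miRNA family and transcript (miR482 and miR2118 as 1 family), so reads that appear under more than 1 small RNA may be counted again. Pairs with at least 10 reads over 2 libraries went into an exact binomial test, two-sided and given the sum of both counts, with the table totals as scaling (scipy 1.17.1), Benjamini-Hochberg adjusted over all such pairs, at 0.05. Sums were given as ratios with exact conditional 95% intervals, and differences as conditional odds ratios. The test was checked on simulated counts with Poisson error only, so the check says nothing of variation between replicate libraries.

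The members and lists were chosen with earlier results of these data known. Named were receptors with at least 10 reads over 3 libraries, called pairs, the deepest receptor of each family, and up to 5 called members of other lists; SGT1 and the entries behind HSP83A and AGO1 were added after their values were seen. Alternatives covered scaling, the minimum of reads, the unit, the test, repeated values, single transcripts and the class of RFL1. Sequences of the small RNAs were not used here.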

Additional observations from a re-analysis of the deposited data

How the results depend on the processing

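No paired analysis was possible because each condition had 1 library, and for the same reason no replicate could be left out. Without scaling, all receptors stood at 1.12 for DS/CK and 0.846 for RW/CK, and in DS/CK miR5213 at 1.08, miR482/miR2118 at 1.38, TIR at 1.17 and non-TIR at 0.817. With mapped reads, all receptors stood at 1.23 for DS/CK and 1.09 for RW/CK. The DS/CK values were then 0.729 for miR1507, 1.19 for miR5213, 1.51 for miR482/miR2118, 1.29 for TIR and 0.898 for non-TIR, and the RW/CK values 0.932, 0.969, 1.29, 1.15 and 0.953 for the same groups. Without RFL1, miR482/miR2118 stood at 0.734 for DS/CK and 1.10 for RW/DS, and with RFL1 as non-TIR, an alternative chosen after seeing the data, non-TIR stood at 0.810 for DS/CK. Without the deepest transcript of each family, the DS/CK difference of miR482/miR2118 over miR1507 was 1.28.

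Receptor pairs lower in DS against CK numbered 0 without scaling, with mapped reads, with no minimum and in the beta-binomial test, and 1 with a minimum of 20 reads. Those higher numbered 1 (RFL1) without scaling, with mapped reads and with the median of ratios. In RW against DS 2 were lower with mapped reads, with a minimum of 5 and with a minimum of 20 reads, and 0 with no minimum and in the beta-binomial test. In RW against CK 1 was lower without scaling and with a minimum of 5 reads, and 0 with mapped reads, with no minimum and in the beta-binomial test. By single small RNA entries, 1 was higher in RW against DS and 1 in RW against CK, both being RPPL1 with mtr-miR2118_1ss18TG. Of all pairs, 193, 194 and 127 were called in DS against CK, RW against DS and RW against CK, against 102, 117 and 50 with no minimum and 0 in the beta-binomial test. In RW against CK, 78 were called with a minimum of 5 reads and 218 with mapped reads. None of the 9 calls on receptors passed under every alternative that tested it, and by family and transcript pair no direction of a call reversed. miR1510 gave no guide arm ratio, since no library had more than 3 such reads.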

Other observations

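Outside the annotation rule, the same small RNAs were listed with transcripts of which 2 resemble receptors, and these were chosen after their values were seen. TRINITY_DN15806_c0_g5, annotated as toll/interleukin-1 receptor-like, had 2 reads in RW, 12 in DS and 12 in CK with mtr-miR5213-5p. TRINITY_DN14861_c1_g5, a hypothetical protein with the symbol RGA3, had 4 reads in RW, 1 in DS and 5 in CK with mtr-miR1507-3p, and was the only transcript outside the rule with at least 10 reads of that small RNA. Transcripts with no receptor annotation also carried many reads. RPL13B, a ribosomal protein, had 42 reads in RW, 23 in DS and 24 in CK with mtr-miR5213-5p. PBP1, a calcium-binding protein, had 9 reads in RW, 63 in DS and 4 in CK with nta-miR482a, the small RNA of RFL1, while MTP4, a metal tolerance protein, had 27, 9 and 39 with the same small RNA.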
